A study of Mus musculus with 12 samples.

Results

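The unfolded protein response is the set of reactions by which a cell adjusts to misfolded protein in the endoplasmic reticulum (ER). The membrane sensors Ire1, Perk and Atf6 detect the load, and the transcription factors Xbp1, Atf4 and Chop carry the signal to genes for chaperones, degradation and, under lasting stress, cell death. Rods make large amounts of membrane protein in the ER for their outer segments, and misfolded protein in rods is a known cause of retinal degeneration. The 10 genes described here were chosen by symbol, namely Hspa5, Hsp90b1, Dnajb9, Herpud1, Ern1, Eif2ak3, Atf6, Xbp1, Atf4 and Ddit3, out of 56748 genes in the table. The 10 symbols matched 11 identifiers, because Ddit3 was listed again under one (ENSMUSG00000116429) whose value was 0 in all 12 libraries. Ddit3 below is ENSMUSG00000025408. Whether the 2 identifiers could share reads, and whether counting used strand, is not given.

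RNA was sequenced from 12 libraries, with 3 replicates in each of 4 groups of 2-week-old littermates. All mice carried RiboTag, which puts an HA tag on the ribosomal protein Rpl22 in cells with Cre, and a rod Cre transgene (i75-Rod-Cre) driven by a promoter active in rods. Control mice (Het) were heterozygous for the floxed Shp2 allele (Shp2fl/+) and knockout mice (KO) were homozygous for it (Shp2fl/fl), so the controls had also lost 1 allele in rods. From each genotype there was RNA of whole retina and RNA captured on the tagged ribosomes of rods (TRAP). Titles of the control samples say wt, but the genotype label gives a heterozygote. Which libraries came from the same mouse is not given, and the p-values measure the spread between these samples.

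The deposited values are a signal proportional to read counts. The 6 libraries of a fraction had nearly the same total, between 14525527 and 14527992 in retina and between 16263948 and 16265259 in rods. Values can therefore be read side by side within a fraction as shares of the total. The comparisons below were scaled further, so deposited values and fold changes can differ. The scaling that gave these totals left a pattern in the low integers, from which an estimated 9.98e6 to 1.92e7 reads were behind 5 of the retina libraries and 1.19e7 to 2.53e7 behind the rod libraries. No estimate could be made for Het retina replicate 3. Groups were compared with limma on the log2 scale after TMM scaling and a pseudocount of 2, which makes fold changes at low values smaller. Standard errors (SE) are those of limma. A gene was called at an adjusted p below 0.05, with Benjamini-Hochberg adjustment over all genes tested, and a log2 fold change beyond 0.5. All 10 genes passed the filter on low values in every comparison.

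The rod label was checked against marker genes. Of the 12 listed rod markers, 11 are summed here. Led by Gnat1, they took 6.77% to 8.10% of the total in rod libraries and 2.40% to 3.07% in retina libraries. The summed shares of other cell types were lower in rods, except that those of the lens markers overlapped between fractions. The 8 Müller cell markers, led by Glul, took 0.0103% to 0.0191% in rods and 0.332% to 0.480% in retina, and the 8 cone markers, led by Opn1sw, 0.0288% to 0.0466% and 0.0953% to 0.113%. The 8 bipolar markers took 0.0485% to 0.0655% in rods and 0.121% to 0.133% in retina. Otx2, which rods also express, was the most abundant in rods, and Prkca in retina. In each genotype, 1 of the 8 was called higher in rods and 6 lower. Of all genes, 21.6% were called higher and 36.8% lower in Het, and 25.8% and 36.5% in KO. For the 8 amacrine and horizontal markers the ranges were 0.00310% to 0.00475% in rods (led by Slc6a9) and 0.0673% to 0.0805% in retina (led by Pax6). The 8 ganglion cell markers took 0.00134% to 0.00261% in rods (led by Nefh) and 0.0576% to 0.0728% in retina (led by Nefl). Of the 8 listed microglia markers, 7 are summed here. Led by Csf1r, they took 6.1e-06% to 9.2e-05% in rods and 0.00182% to 0.00414% in retina. All 8 took 0.00130% to 0.00194% in rods and 0.00445% to 0.00634% in retina. The 8 vascular markers, led by Kdr, took 5.9e-04% to 9.5e-04% in rods and 0.0247% to 0.0276% in retina. The 8 RPE markers took 1.8e-04% to 0.00241% in rods (led by Rgr) and 0.00292% to 0.0760% in retina (led by Pmel). The 13 genes of the mitochondrial genome, led by mt-Co1, took 0.0452% to 0.0854% in rods and 5.30% to 9.58% in retina. The 9 lens markers, led by Cryaa, varied most between libraries, from 3.1e-05% to 0.0826% in rods and from 8.4e-04% to 5.18% in retina, and Lim2 among them was listed at 0 in all libraries. No other marker was listed at 0 in every library of a fraction.

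Levels of the 10 genes were compared with each other per kilobase of transcript, on TMM-scaled values of all 12 libraries. Atf4, the transcription factor whose translation rises when eIF2 is phosphorylated, had the highest level in each of the 4 groups, and Ern1 the lowest. The level of Atf4 was 57.3 times that of Ern1 in Het rods, 58.5 times in KO rods, 27.8 times in Het retina and 28.0 times in KO retina. In Het rods, the order of the levels was Atf4 (5187 ± 313, SD, n = 3), Hsp90b1 (4532 ± 304), Hspa5 (3678 ± 596), Xbp1 (891 ± 178), Ddit3 (574 ± 128), Atf6 (489 ± 29.5), Herpud1 (387 ± 54.6), Eif2ak3 (274 ± 12.2), Dnajb9 (128 ± 25.4) and Ern1 (90.5 ± 6.52). Neighbours whose replicates overlapped were Xbp1 and Ddit3, and Ddit3 and Atf6. In KO rods the order differed only in that Hspa5 (3868 ± 835) stood before Hsp90b1 (3772 ± 426), with overlapping replicates. Xbp1 and Ddit3, Atf6 and Herpud1, and Dnajb9 and Ern1 also overlapped there. Both retina groups had the order Atf4, Hsp90b1, Hspa5, Xbp1, Ddit3, Herpud1, Atf6, Dnajb9, Eif2ak3 and Ern1. In retina, the replicates of Atf4 and Hsp90b1, Hsp90b1 and Hspa5, Xbp1 and Ddit3, Ddit3 and Herpud1, and Atf6 and Dnajb9 overlapped.

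**Figure D1:**
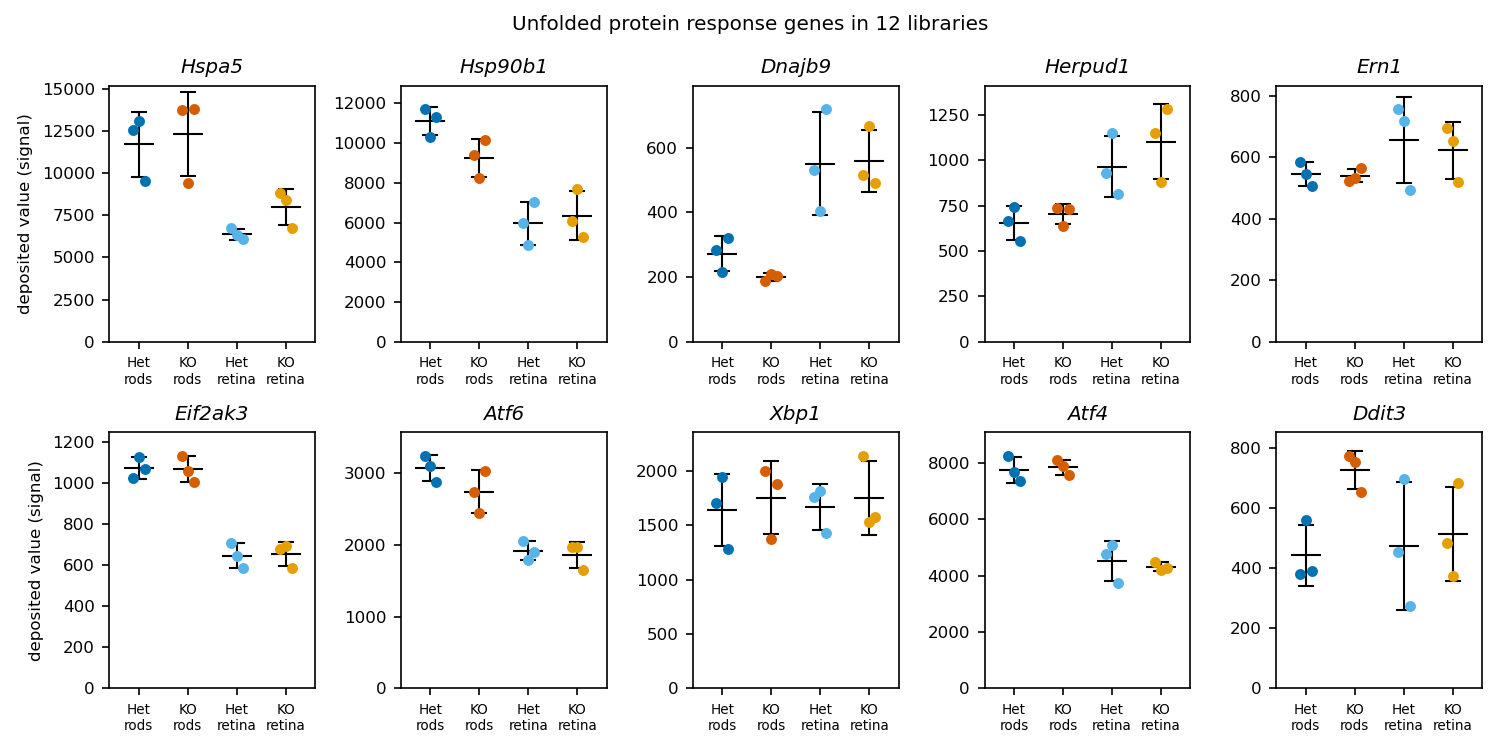
Deposited value (signal, linear axis from 0) of each of the 10 genes in the 12 libraries, by group; points are the 3 replicates, the horizontal line is the mean and the bars are the SD. Hspa5, Hsp90b1, Eif2ak3, Atf6 and Atf4 stand higher in rods than in retina in both genotypes, Dnajb9 and Herpud1 stand lower (Herpud1 was not called after TMM scaling), and the 3 KO rod values of Ddit3 (774, 753 and 655) lie above the 3 Het rod values (381, 559 and 389). The mean of Ern1 was also lower in rods (545 against 656 in Het, 540 against 622 in KO), with overlapping replicates. After TMM scaling its log2 fold changes were 0.01 and 0.18, not called. Library totals differ between the fractions.

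Het rods were compared with Het retina to ask which transcripts rod ribosomes carry in excess of the whole tissue. The ER chaperones Hspa5 and Hsp90b1, the sensors Eif2ak3 and Atf6 and the transcription factor Atf4 were higher in rods, by log2 fold changes between 0.93 and 1.16, whereas Dnajb9 was lower by a log2 fold change of -0.74. Thus 5 of the 10 genes were called higher and 1 lower. Of the 16110 genes tested, 21.6% were called higher and 36.8% lower. The median log2 fold change was 0.58 for the 10 genes and -0.11 for all genes tested. In bulk RNA, fewer cells of a type and less RNA per cell cannot be told apart. The share of markers of other cells also differed between the fractions, as given above, and its part in these differences was not tested.

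Hspa5 (ENSMUSG00000026864) encodes BiP, the main Hsp70 chaperone of the ER, which also binds the sensors. It measured 12569, 13064 and 9515 in Het rods and 6724, 6304 and 6091 in Het retina. The lowest rod library was above every retina library after scaling, and the log2 fold change was 1.12 (SE 0.14, adjusted p = 1.2e-04 from limma). Hsp90b1 (ENSMUSG00000020048) encodes Grp94, the Hsp90 chaperone of the ER. It had 11699, 10326 and 11286 in Het rods and 5996, 4884 and 7037 in Het retina. The groups did not overlap, and the log2 fold change was 1.16 (SE 0.14, adjusted p = 1.3e-04 from limma). Dnajb9 (ENSMUSG00000014905) encodes ERdj4, a co-chaperone of BiP that is induced by spliced Xbp1. It went the other way, with 284, 215 and 320 in Het rods and 530, 403 and 719 in Het retina. All 3 rod values were below all 3 retina values, with a log2 fold change of -0.74 (SE 0.24, adjusted p = 0.0242 from limma). This call was lost without Het rod replicate 1 (-0.76, adjusted p = 0.0570), Het rod replicate 2 (-0.57, adjusted p = 0.0969) or Het retina replicate 1 (-0.84, adjusted p = 0.0664), whereas it held in each of the other 3 fits with 1 library left out.

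Herpud1 (ENSMUSG00000031770) encodes an ER membrane protein of the degradation complex. It measured 666, 744 and 556 in Het rods and 930, 1147 and 815 in Het retina, with a log2 fold change of -0.30 (SE 0.17, adjusted p = 0.158 from limma). Among the sensors, Eif2ak3 (ENSMUSG00000031668), which encodes the kinase Perk, had 1023, 1126 and 1066 in Het rods and 707, 644 and 584 in Het retina. Its log2 fold change was 0.98 (SE 0.12, adjusted p = 1.2e-04 from limma), and the groups did not overlap. Atf6 (ENSMUSG00000026663), a sensor that becomes a transcription factor when cleaved, had 3244, 3102 and 2877 in Het rods and 2056, 1795 and 1908 in Het retina. It was higher in rods by 0.93 on the log2 scale (SE 0.10, adjusted p = 7.2e-05 from limma). Ern1 (ENSMUSG00000020715), which encodes Ire1, the kinase and nuclease that splices Xbp1 mRNA, stood apart from the other sensors. It measured 583, 547 and 505 in Het rods and 756, 717 and 495 in Het retina, with a log2 fold change of 0.01 (SE 0.17, 95% interval -0.39 to 0.40).

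Of the transcription factors, Atf4 (ENSMUSG00000042406) had 8256, 7676 and 7349 in Het rods and 4763, 5078 and 3725 in Het retina. Every rod library was above every retina library, and the log2 fold change was 1.04 (SE 0.13, adjusted p = 1.7e-04 from limma). Xbp1 (ENSMUSG00000020484), whose mRNA is spliced by Ire1, had 1708, 1943 and 1285 in Het rods and 1765, 1816 and 1428 in Het retina. The groups overlapped, with a log2 fold change of 0.22 (SE 0.17, adjusted p = 0.299 from limma). Ddit3, which encodes Chop, had 381, 559 and 389 in Het rods and 453, 698 and 273 in Het retina. The retina libraries alone spanned more than the rod libraries did, and the log2 fold change was 0.23 (SE 0.32, adjusted p = 0.559 from limma). Splicing of Xbp1, cleavage of Atf6 and phosphorylation of the sensors are not visible in gene-level values.

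The direction between fractions rests in part on the scaling. With library size only in place of TMM, the log2 fold change of all genes shifted by a median of -0.41. The 5 genes called higher were still called, with log2 fold changes of 0.70 for Hspa5, 0.75 for Hsp90b1, 0.57 for Eif2ak3, 0.52 for Atf6 and 0.63 for Atf4. Herpud1 was then called lower (-0.71, adjusted p = 0.00541 from limma), and Ern1, Xbp1 and Ddit3 changed sign without being called. Of all genes, 1168 were higher and 7399 lower under library size, against 3475 and 5921 under TMM.

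KO rods were compared with KO retina, which uses none of the libraries above. The same 5 genes were called higher in rods, Ddit3 was called higher too, and Dnajb9 was called lower. Counts were thus 6 of 10 higher and 1 of 10 lower, where 25.8% of the 16121 genes tested were called higher and 36.5% lower. The median log2 fold change was 0.92 for the 10 genes and -0.02 for all genes. Atf4 had 8095, 7889 and 7556 in KO rods and 4486, 4194 and 4273 in KO retina, with a log2 fold change of 1.24 (SE 0.10, adjusted p = 1.1e-05 from limma). Hspa5 had 13754, 9425 and 13788 in KO rods and 8798, 8420 and 6774 in KO retina. Replicate 2 was the lowest KO rod library but still lay above the KO retina libraries after scaling, and the log2 fold change was 0.98 (SE 0.17, adjusted p = 9.6e-04 from limma). Hsp90b1 had 9386, 8250 and 10135 in KO rods and 6054, 7709 and 5267 in KO retina, with a log2 fold change of 0.93 (SE 0.15, adjusted p = 6.5e-04 from limma).

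Of the sensors, Eif2ak3 had 1132, 1060 and 1006 in KO rods and 678, 693 and 587 in KO retina, with a log2 fold change of 1.08 (SE 0.11). Atf6 had 2745, 2445 and 3038 in KO rods and 1970, 1968 and 1651 in KO retina, with a log2 fold change of 0.93 (SE 0.12). Neither sensor overlapped between the groups. Ern1 had 524, 531 and 565 in KO rods and 694, 654 and 519 in KO retina, and after scaling its rod values lay above its retina values, but its log2 fold change of 0.18 (SE 0.13, adjusted p = 0.249 from limma) was not called. Dnajb9 had 187, 210 and 202 in KO rods and 515, 667 and 491 in KO retina. The log2 fold change of -1.09 (SE 0.16, adjusted p = 2.7e-04 from limma) came with lower values in 3 of 3 rod libraries.

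Ddit3 had 774, 753 and 655 in KO rods and 483, 373 and 683 in KO retina. Its scaled values did not overlap, with a log2 fold change of 0.92 (SE 0.22, adjusted p = 0.00563 from limma), but the call was lost without KO retina replicate 1 (0.71, adjusted p = 0.0633), and without KO retina replicate 2 the log2 fold change was 0.53. Herpud1 had 737, 640 and 729 in KO rods and 1150, 877 and 1280 in KO retina. Its log2 fold change was -0.26 (SE 0.17, adjusted p = 0.192 from limma), and it was called lower without KO retina replicate 2 (-0.59, adjusted p = 0.00373). Xbp1 had 2005, 1375 and 1885 in KO rods and 2142, 1533 and 1575 in KO retina. Its log2 fold change was 0.38 (SE 0.18, adjusted p = 0.0955 from limma), and it was called higher without KO rod replicate 2 (0.56, adjusted p = 0.0224). With library size only, the log2 fold change of all genes shifted by a median of -0.53, and only Atf4 (0.70) and Eif2ak3 (0.55) among the 10 were still called higher. Dnajb9 (-1.62) and Herpud1 (-0.80) were then called lower, and Ern1 and Xbp1 changed sign.

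Other genes of ER protein handling were read from lists, beside the 21.6% of all genes called higher and 36.8% lower in Het and the 25.8% and 36.5% in KO. Of 20 ER chaperones and folding enzymes, 15 were called higher and 0 lower in Het rods against Het retina, with a median log2 fold change of 0.83, and 15 and 0 in KO rods against KO retina, with a median of 0.78. The lectin chaperones Calr (1.17 in Het, 1.19 in KO) and Canx (0.83 and 0.70) had the highest levels per kilobase on this list. The disulfide isomerase Pdia4 had 1.40 in Het and 1.41 in KO, and the BiP co-chaperone Dnajb11 had 1.19 and 1.07. The disulfide isomerase P4hb had 1.16 and 1.22. Dnajb9 thus differed in direction from Dnajb11. Of the 18 translocon and signal peptidase genes, 13 were higher and 0 lower in Het (median 0.69), and 12 and 0 in KO (median 0.66). The translocon-associated Ssr2 (0.96 and 1.21) and Ssr3 (0.90 and 0.73) had the highest levels. Srp54a, a subunit of the signal recognition particle, had 1.13 in Het and 0.96 in KO. Srprb, a subunit of the receptor of that particle, had 0.64 and 1.02. In KO, the calls of Canx (0.40) and Ssr3 (0.44) were lost without KO retina replicate 3.

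Of 18 genes of ER-associated degradation, 17 were tested. In Het, 10 were higher and 1 lower in rods (median log2 fold change 0.64), and in KO 11 were higher and 0 lower (median 0.68). The ATPase Vcp had 1.09 in Het and 1.07 in KO. Selenos (1.05 and 0.87), Edem3 (0.92 and 0.83) and Os9 (0.64 and 1.30) were also higher in both. Edem2 (-0.61) was lower in Het, and the ligase Syvn1 (1.11) was higher in KO. Among 14 genes for eIF2, its exchange factor and its kinases, 9 were higher and 2 lower in Het (median 0.59), and 6 and 2 in KO (median 0.43). The subunits Eif2s2 (0.60) and Eif2s3x (0.94), which had the highest levels, and Eif2s1 (0.84) and Eif2b3 (0.97) were higher in Het. In KO, Eif2s3x (0.81), Eif2b2 (1.14), Eif2b3 (0.95) and Eif2b4 (1.21) were higher. Eif2b2 (0.59) and Eif2b4 (0.76) were also called higher in Het. The 2 lower in each genotype were Eif2ak2, which encodes the kinase Pkr, and the adaptor gene Nck2. Both passed the filter only through retina, where they are high, so nothing is read from their calls. Eif2ak2 was at 5, 2 and 8 in Het rods and at 92, 86 and 155 in Het retina. Some calls did not hold with a library left out. In Het, Edem2 lost its call without Het rod replicate 1 (-0.53), and Eif2s2 lost it without Het retina replicate 1 (0.49) or 2 (0.40). Eif2s2 also lost it with the GC trend described below removed (0.33), and Edem2 with all 12 libraries scaled and fitted together (-0.44). In KO, Eif2s3x lost it without KO rod replicate 2 (0.62) or 3 (0.88) and without KO retina replicate 1 (0.54) or 3 (0.39).

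Of 16 relatives and processing factors of the sensors, 13 were tested in Het, with 5 higher and 3 lower (median log2 fold change 0.39), and 14 in KO, with 8 higher and 4 lower (median 0.77). The RNA ligase Rtcb, which joins the exons of Xbp1, had 0.75 in Het and 0.77 in KO, and the NF-Y subunit Nfyc had 0.80 and 1.01. Nfya (1.11 and 1.09) and Nfyb (0.90 and 0.88) were also higher in both, and Atf6b, a relative of Atf6, had 1.55 in KO. Creb3l2 (-1.87 and -1.94) and the kinase Map3k5 (-2.93 and -2.43) were lower in rods. Of the genes called lower, 1 of 3 in Het and 2 of 4 in KO passed the filter only through retina, among them Creb3l1, listed at 0 in all Het rod libraries, and nothing is read from these calls. Of the 23 targets of Atf4 and Chop, 20 were tested, with 5 higher and 6 lower in Het (median 0.08), where 21.6% and 36.8% of all genes were. In KO, 8 were higher and 6 lower (median 0.29), where 25.8% and 36.5% of all genes were. Ddit4 (1.01 and 1.17) and Vldlr (1.24 and 1.05), which had the highest levels, and Atf3 (1.51 and 1.45) were higher. Tars1 (listed as Tars) was called higher in KO (1.23) and also in Het (adjusted p = 1.1e-04 from limma). The serine synthesis enzyme Psat1 (-3.25 and -3.26), Atf5 (-2.15 and -1.93) and the cystine transporter Slc7a11 (-1.85 and -2.93) were lower in both. Nupr1 (-4.85) was lower in KO. In Het, Nupr1 passed the filter only through retina.

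The lists depend on the scaling as the 10 genes do. With library size only, 7.25% of all genes were called higher and 45.9% lower in Het (1168 and 7399), and 7.10% and 48.7% in KO (1144 and 7846). Then 7 chaperones and folding enzymes were called higher and 0 lower in Het (median log2 fold change 0.42), and 7 and 1 in KO (0.25). The degradation genes then had 3 higher and 2 lower in both genotypes (medians of 0.22 in Het and 0.15 in KO), and the translocon genes 2 and 0 in Het (0.28) and 1 and 2 in KO (0.12). The eIF2 genes had 2 higher and 3 lower in both, with a median of 0.18 in Het that changed sign in KO (-0.11). The relatives of the sensors had 1 higher and 4 lower in Het (-0.02) and 2 and 6 in KO (0.23). The targets of Atf4 and Chop had 4 and 8 in Het (-0.33) and 4 and 6 in KO (-0.25), with both medians below 0. Of the genes named above as higher in Het, Canx (0.42), Ssr3 (0.48), Eif2s1 (0.43), Eif2s2 (0.19), Rtcb (0.34), Nfyb (0.49) and Nfyc (0.39) were not called with library size only. In KO, Canx (0.16), Ssr3 (0.20), Srp54a (0.42), Srprb (0.48), Eif2s3x (0.27), Eif2b3 (0.42), Rtcb (0.23) and Nfyc (0.48) were not. Other settings and left-out libraries were not read gene by gene for Nfyb, Selenos, Edem3, Dnajb11 and Atf5 in KO. Nor were they for Os9, Tars1, Eif2b2, Eif2b4, P4hb, Srprb and Slc7a11 in Het.

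**Figure D2:**
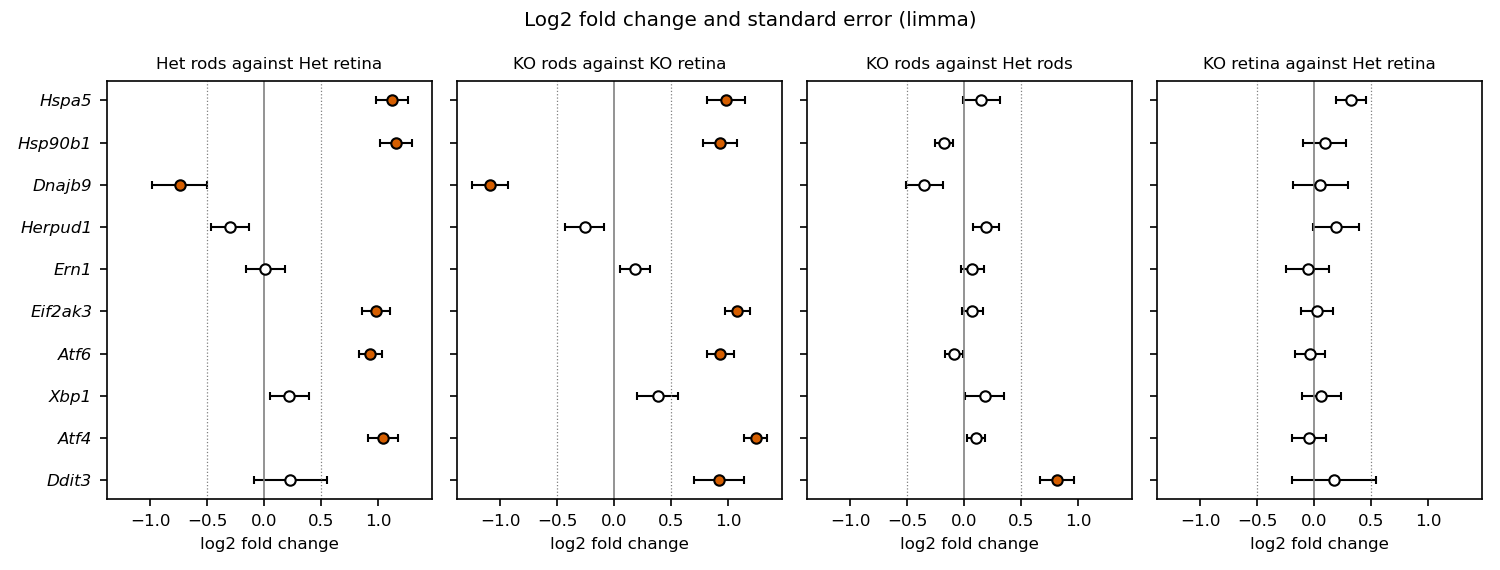
Log2 fold change (points) and standard error (bars) of the 10 genes from limma in the 4 comparisons of 2 groups; filled points are called and dotted lines mark log2 fold changes of -0.5 and 0.5. Between fractions 6 and 7 of the 10 genes are called, between genotypes only Ddit3 in rods (0.81). Of all genes tested, 21.6% were called higher and 36.8% lower between fractions in Het, and 25.8% and 36.5% in KO. Between genotypes the shares were 11.2% and 1.91% in rods and 0% and 0% in retina.

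The knockout itself was read first from Ptpn11 (ENSMUSG00000043733), which encodes Shp2. Its values were 2511, 2439 and 2431 in Het against 1735, 2139 and 1971 in KO rods. All 3 KO libraries were below all 3 Het libraries, but the log2 fold change of -0.26 (SE 0.09, adjusted p = 0.0637 from limma) was not called. Whole retina gave 2390, 2512 and 2125 for Het mice against 2205, 2147 and 2466 for KO mice, and its log2 fold change there was -0.04 (SE 0.14). Reads of the floxed part cannot be separated from the rest of the gene in gene-level values.

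KO rods were compared with Het rods to ask what the loss of the second Shp2 allele does to the mRNA on rod ribosomes. Ddit3 was the only 1 of the 10 genes that was called. It was higher in KO rods, with 774, 753 and 655 against 381, 559 and 389 in Het rods (means of 727 ± 63.5 and 443 ± 101, SD, n = 3). The 3 KO libraries lay above the 3 Het libraries, and the log2 fold change was 0.81 (SE 0.15, adjusted p = 0.00520 from limma), or 1.76-fold. Of the 13055 genes tested, 11.2% were called higher and 1.91% lower, and the scaled values of the groups did not overlap for 44.0%, against 1 of the 10 genes. With library size only, 9.21% of all genes were called higher and 4.47% lower. On the deposited values, which differ in scaling, Ddit3, Hsp90b1 and Dnajb9 did not overlap, or 3 of 10, where 46.2% of all genes did not. The share of the 10 genes called, 1 of 10, is near that of all genes. The median log2 fold change was 0.09 for the 10 genes and -0.01 for all genes tested. Ddit3 kept its call with each of the 6 libraries left out, with log2 fold changes between 0.71 and 0.99. The number of genes called in all depended more on single libraries, with 795 higher and 93 lower without Het rod replicate 1, 892 and 210 without KO rod replicate 2, and 1156 and 146 without KO rod replicate 1. When all 12 libraries were scaled and fitted together, which changes the factors as well as the spread, it was 0.73 (adjusted p = 0.180 from limma), and no gene of the table was called.

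Marker shares were also read by genotype. The amacrine and horizontal markers took 0.00328%, 0.00310% and 0.00331% in Het rods against 0.00475%, 0.00382% and 0.00395% in KO rods, with no overlap. All 8 microglia markers took 0.00191%, 0.00175% and 0.00194% against 0.00130%, 0.00132% and 0.00132%, with no overlap. The 7 summed above did overlap. The 11 rod markers took 6.95%, 6.77% and 7.45% against 7.93%, 8.10% and 7.09%, and the lens markers 3.1e-05%, 0.0182% and 0.0287% against 0.0115%, 0.0233% and 0.0826%, both with overlap. Of the 8 lens markers tested, 0 were called by limma, where 11.2% of all genes were called higher and 1.91% lower. The median log2 fold change of the lens markers was 2.41. Called higher were 2 of 12 rod, 1 of 8 Müller cell and 1 of 5 amacrine and horizontal markers. The part of these shares in the differences between rod genotypes was not tested.

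The other 9 genes were not called between rod genotypes, and the intervals of 7 of them spanned 0. Among the chaperones, Hspa5 had 12569, 13064 and 9515 in Het against 13754, 9425 and 13788 in KO rods, with 1 low library in each genotype and a log2 fold change of 0.15 (95% interval -0.23 to 0.53). Hsp90b1 had 11699, 10326 and 11286 against 9386, 8250 and 10135, with a log2 fold change of -0.18 (SE 0.08, adjusted p = 0.116 from limma). Dnajb9 had 284, 215 and 320 against 187, 210 and 202. Its log2 fold change was -0.35 (SE 0.16, adjusted p = 0.129 from limma), and it was called lower without Het rod replicate 2 (-0.52, adjusted p = 0.0298). The sensors had log2 fold changes of 0.07 (Ern1, 95% interval -0.14 to 0.28), 0.07 (Eif2ak3, -0.12 to 0.27) and -0.09 (Atf6, -0.26 to 0.09). For Atf4, the regulator that lies upstream of Ddit3, the values were 8256, 7676 and 7349 in Het against 8095, 7889 and 7556 in KO rods. Its log2 fold change was 0.10 (95% interval -0.07 to 0.27), and the groups overlapped. Xbp1 (0.18, 95% interval -0.22 to 0.57) and Herpud1 (0.19, -0.05 to 0.43) overlapped too.

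The genotypes of the rod libraries also differed in a trend with the GC content of transcripts. The median log2 deviation of the 20% of genes richest in GC minus that of the 20% poorest in GC was -0.70, -0.19 and -0.35 in the Het and 0.36, 0.64 and 0.25 in the KO libraries of rods. These values do not overlap, and genotype cannot be told apart from this trend. Ddit3 had the highest GC content of the 10 genes (55.4%, above 80.8% of the genes tested) and the largest rise, and Dnajb9 the lowest GC content (40.6%) and the most negative log2 fold change. With the trend of each library removed, the log2 fold change of Ddit3 was 0.51 (SE 0.12, adjusted p = 0.0201 from limma), just past the limit of 0.5. That of Dnajb9 was then -0.01, and those of Hsp90b1 (0.11), Atf6 (0.15) and Atf4 (-0.10) changed sign, none of them called. Hspa5 had 0.40 (SE 0.16, adjusted p = 0.190 from limma). Over all genes, 277 were then called higher and 110 lower, in place of 1460 and 250. The removal also moved the median log2 fold change of all genes by 0.09, to 0.07.

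**Figure D3:**
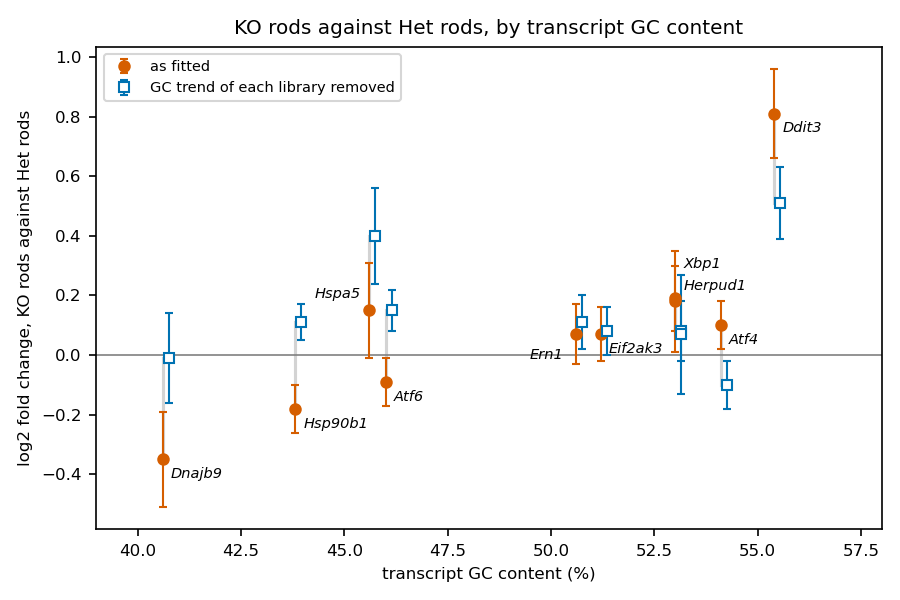
Log2 fold change of the 10 genes in KO rods against Het rods (bars are standard errors from limma) by the GC content of the longest transcript in percent, as fitted (circles) and with the GC trend of each library removed (squares, moved slightly right). Ddit3, at 55.4% GC, goes from 0.81 to 0.51, and Dnajb9, at 40.6% GC, from -0.35 to -0.01.

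The same trend ran between replicates of whole retina, within both genotypes. It was -0.21, 0.74 and -0.72 in Het retina and 0.01, -0.54 and 0.76 in KO retina. Ddit3 followed this order, with its highest values in Het retina replicate 2 (698) and KO retina replicate 3 (683) and its lowest in Het retina replicate 3 (273) and KO retina replicate 2 (373). Hsp90b1 ran the other way, with 4884 and 5267 in the first pair of libraries and 7037 and 7709 in the second. Dnajb9 did as well, with 403 and 491 against 719 and 667. Not all genes kept an order. As the trend rose in KO retina from -0.54 to 0.01 and 0.76, Atf4 had 4194, 4486 and 4273. Xbp1 had 1533, 2142 and 1575, and Hspa5 8420, 8798 and 6774, whereas Herpud1 rose (877, 1150 and 1280). In KO rods, Ddit3 had 655, 774 and 753 as the trend rose from 0.25 to 0.36 and 0.64. Ddit3, which had the widest range of the 10 genes between retina libraries, thus varied 2.56-fold among them, while its rod values varied 2.03-fold.

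Of the 99 tested genes on the 6 lists of ER protein handling, 7 were called higher and 2 lower in KO rods, where 11.2% and 1.91% of all genes were, so the lists do not stand out. Those higher were Atf6b (1.02), Os9 (0.70), Fkbp2 (0.67), Ppp1r15a (0.62), Traf2 (0.58), Eif2b4 (0.56) and Eif2b2 (0.53). Ppp1r15a encodes Gadd34, the eIF2 phosphatase subunit induced by Atf4 and Chop, and Eif2b2 and Eif2b4 encode subunits of the eIF2 exchange factor. Slc7a11 (-1.45) and the ER lectin gene Erlec1 (-0.50) were lower. The median GC content of the 7 was 56.6%, against 49.5% for all genes tested, and Slc7a11 and Erlec1 had 40.7% and 40.4%. With the GC trend removed, 0 of the 7 were called, Fkbp2 changed sign (-0.16), Erlec1 (-0.16) was not called, and Slc7a11 was still called (-1.11, adjusted p = 0.0268 from limma). Atf6b, Os9 and Slc7a11 kept their calls with each library left out. Without Het rod replicate 1, Fkbp2 (0.49), Ppp1r15a (0.48), Eif2b2 (0.50), Eif2b4 (0.47), Traf2 (0.44) and Erlec1 (-0.49) were not called. Without KO rod replicate 2, Fkbp2 (0.62), Eif2b2 (0.39), Eif2b4 (0.43) and Traf2 (0.48) were not. Fkbp2 (0.59), Traf2 (0.55) and Erlec1 (-0.45) were not called without KO rod replicate 1, Erlec1 (-0.46) without KO rod replicate 3, and Erlec1 (-0.48), Eif2b2 (0.50) and Traf2 (0.59) without Het rod replicate 3. With library size only, Eif2b2 (0.45), Eif2b4 (0.48) and Traf2 (0.50) were not called. Erlec1 also lost its call with TMM factors from all genes (-0.48) and with a pseudocount of 8 (-0.50).

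By list, in KO rods against Het rods, 1 of 20 chaperones and folding enzymes was higher and 0 lower (median log2 fold change -0.01), 1 and 1 of 17 degradation genes (-0.03), 1 and 1 of 20 targets of Atf4 and Chop (0.17), 2 and 0 of 12 eIF2 genes (-0.09), 2 and 0 of 12 relatives of the sensors (0.16) and 0 and 0 of 18 translocon genes (-0.17). With library size only, the chaperones had 1 higher and 2 lower (median -0.09). The eIF2 genes then had 0 called, and the relatives of the sensors 1 higher. With TMM factors from all genes, 2 chaperones and 2 targets of Atf4 and Chop were higher, and 0 degradation genes lower. With RLE factors, 1 chaperone was called lower.

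KO retina was compared with Het retina to ask whether the loss in rods shows in the whole tissue. None of the 10 genes was called by limma, where 0% of the 16863 genes tested were called higher and 0% lower, and 140 genes had an unadjusted p below 0.05. The median log2 fold change was 0.06 for the 10 genes and -0.00 for all genes. Hspa5 was the 1 of 10 whose groups did not overlap, where 3.50% of all genes did not. Its values were 6724, 6304 and 6091 in Het retina and 8798, 8420 and 6774 in KO retina (means of 6373 ± 322 and 7997 ± 1076, SD, n = 3). The log2 fold change was 0.32 (SE 0.13, 95% interval 0.01 to 0.63) and did not pass the adjustment over all genes. The remaining 9 genes had log2 fold changes between -0.06 (Ern1) and 0.19 (Herpud1). The lens share of the retina libraries was 8.4e-04%, 1.61% and 1.61% in Het and 0.447%, 1.08% and 5.18% in KO, so it varied within both genotypes, and its part in these values was not tested. None of the 6 lists had a called gene.

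The KO effect in rods was then set against the KO effect in retina in 1 fit over all 12 libraries. No gene of the 17192 tested was called by limma (0% higher and 0% lower), and 601 had an unadjusted p below 0.05. For Ddit3 the difference was 0.54 (95% interval -0.38 to 1.45, unadjusted p = 0.228 and adjusted p = 0.803 from limma), so its rise in rods was not shown to differ from its log2 fold change in retina (0.17, 95% interval -0.68 to 1.02). The most negative differences were those of Dnajb9 (-0.50, 95% interval -1.15 to 0.15) and Hsp90b1 (-0.38, -0.87 to 0.11). None of the 10 genes had an unadjusted p below 0.05. The same term asks whether the rod to retina difference depends on genotype, so Ddit3, called higher in rods only in KO mice, did not pass that test either.

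Likeness of pattern was described over the 12 libraries, on log2 values centred on the mean of each fraction, among 12921 genes that passed the filter in both. The genes with the highest Pearson correlation with Hspa5 were Glb1l3 (r = 0.97), Gm42732 (0.95) and H2aw (0.94), and those with Atf4 were Lmnb1 (0.90), Xpc (0.90) and Atrip (0.89). Among the 10 genes, Xbp1 was the most like Hspa5 (0.77), and Ern1 (0.70) and Ddit3 (0.60) the most like Atf4. Dnajb9 (-0.66) and Hsp90b1 (-0.59) ran opposite to Atf4. The points share libraries and the GC trend described above.

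The promoters were read because the genes that were higher in rods include chaperones with known ER stress elements. RefSeq windows of 300 bases around the start (GRCm38.p6) were found for 9 of the 10 genes, Atf6 being the missing one. The ER stress element, which is CCAAT, 9 unspecified bases and CCACG, was searched on both strands, as were the others, and found in 2 of the 9, Hspa5 and Hsp90b1, and in 0.119% of all 32851 windows. ERSE-II, which is ATTGG, 1 unspecified base and CCACG, was in Herpud1 alone of the 9 and in 0.0365% of windows. The unfolded protein response element, TGACGTGG, was in 0 of the 9 and 0.676% of windows, and the C/EBP-ATF element, TGATGNAA, was in Herpud1 alone and 3.97% of windows. Hspa5 and Hsp90b1, called higher in rods, hold the first element, whereas Herpud1, which was not called, holds the second. Eif2ak3, Atf4, Dnajb9, Xbp1, Ern1 and Ddit3 hold no exact match in their windows. Sites outside the 300 bases or with other letters were not searched, so an absence does not show that a gene lacks such an element. A match is a run of letters and not a tested site. The windows of the 3 genes with a match follow, 5′ to 3′ on the strand of the gene, with matches in capitals, from chr2:34771840-34772139 (plus strand) for Hspa5, chr10:86705395-86705694 (minus strand) for Hsp90b1, which holds 2 matches, the second on the opposite strand, and chr8:94386179-94386478 (plus strand) for Herpud1, where the C/EBP-ATF match is on the opposite strand and comes first.
Hspa5: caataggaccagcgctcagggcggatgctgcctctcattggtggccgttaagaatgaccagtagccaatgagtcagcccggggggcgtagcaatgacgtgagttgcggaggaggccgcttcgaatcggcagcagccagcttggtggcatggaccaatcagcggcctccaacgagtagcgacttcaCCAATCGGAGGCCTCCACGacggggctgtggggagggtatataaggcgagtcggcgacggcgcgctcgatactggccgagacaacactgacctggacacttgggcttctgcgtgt
Hsp90b1: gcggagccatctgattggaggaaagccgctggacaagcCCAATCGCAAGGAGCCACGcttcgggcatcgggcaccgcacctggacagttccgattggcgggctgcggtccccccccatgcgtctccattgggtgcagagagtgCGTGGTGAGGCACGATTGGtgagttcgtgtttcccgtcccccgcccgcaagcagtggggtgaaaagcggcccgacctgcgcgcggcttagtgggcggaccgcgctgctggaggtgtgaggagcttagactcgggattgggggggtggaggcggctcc
Herpud1: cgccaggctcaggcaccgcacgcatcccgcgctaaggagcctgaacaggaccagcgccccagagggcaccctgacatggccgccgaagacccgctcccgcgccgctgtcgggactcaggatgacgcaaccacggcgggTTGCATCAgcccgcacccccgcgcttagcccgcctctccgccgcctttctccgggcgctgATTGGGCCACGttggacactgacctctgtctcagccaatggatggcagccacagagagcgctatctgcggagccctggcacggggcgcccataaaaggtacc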

How the data were processed

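RNA was measured in 12 libraries, 3 in each of 4 groups. The authors aligned reads with HISAT2, and the deposited values, used here as a signal, are library-scaled whole numbers whose scaling step is not stated. The table had 0 columns of other samples. Values were scaled by TMM factors from genes past the filter (at least 10 in at least 3 libraries, sum of at least 15), moved to log2 with a pseudocount of 2 and fitted with limma 3.58.1 (trend, robust) in R 4.3.3, with adjustment over all genes tested. The fit was tested on simulated data.

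Named genes were all 10 genes, Ptpn11 and, from each pathway list, the 2 with the highest level per kilobase and at most 3 called genes with the largest change in each direction per comparison. Between fractions, a gene so named in 1 genotype is also given for the other where it was called there. From each marker list the most abundant gene in each fraction and any at 0 were named (for rods and microglia after leaving out 1 gene, a choice made after the data were seen), and for likeness the 3 genes most correlated with Hspa5 and with Atf4. Members and lists were chosen with earlier results of these data known.

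Replicate numbers come from the sample titles. In Het rods and Het retina, libraries of the same number were alike (r = 0.43, 0.38 and 0.24, mean 0.35, against -0.18 for different numbers), but no replicate block was used. The alternatives were RLE factors, library size, TMM factors from all genes, other pseudocounts, no filter, a replicate block, removal of each library's GC trend, all libraries scaled and fitted together, removal of rod-depleted genes and each library left out. TMM factors from all genes were tried first and replaced after the results were seen. Promoters are from RefSeq (GRCm38.p6), while the authors' build was GRCm39. Tools were Python 3.11.15, NumPy 2.4.6, pandas 2.3.3 and matplotlib 3.10.9.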

Additional observations from a re-analysis of the deposited data

How the results depend on the processing

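With settings other than a left-out library, 1190 of 1277 log2 fold changes kept their direction and call, 55 lost the call, 2 gained it and 30 changed sign. With 1 library left out, 733 of 810 kept both, 32 lost the call, 3 gained it and 42 changed sign. The causes were not tested.

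With library size only, 2 of the 10 genes were called lower in Het rods against Het retina, and the 5 called higher with TMM were still called. Of all genes, 7.25% were then called higher and 45.9% lower. In KO rods against KO retina 2 of the 10 were called higher and 2 lower, where 7.10% and 48.7% of all genes were. Het rods against Het retina then had Ern1 at -0.41, Xbp1 at -0.20, Ddit3 at -0.18 and Ptpn11 at -0.09. KO rods against KO retina had Ern1 at -0.36, Xbp1 at -0.16 and Ptpn11 at -0.39, and KO rods against Het rods had Ern1 at -0.01 and Eif2ak3 at -0.01. With all 12 libraries scaled and fitted together, the median of all genes moved by -0.09 in KO rods against Het rods. Called by limma were then 0 of the 10 genes and 0 of the 13055 genes tested. Ern1 was then at -0.01 and Eif2ak3 at -0.01.

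With the GC trend removed, with or without the replicate block, Ern1 was at -0.07 in Het rods against Het retina. KO rods against Het rods had Hsp90b1 at 0.11, Atf6 at 0.15, Atf4 at -0.10 and Fkbp2 at -0.16. For the KO effect in rods minus that in retina, Atf6 was at 0.04, Xbp1 at -0.08 and Atf4 at -0.12. TMM factors from all genes were the scaling tried first, and the factors from genes past the filter took their place after seeing the data. Kept as an added alternative, factors from all genes moved that difference by a median of 0.15, with Herpud1 at 0.04, Eif2ak3 at 0.10 and Atf6 at 0.00, and kept every count of the 10 genes called in the 5 comparisons.

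The replicate block changed no call of the 10 genes. It gave 1589 genes higher and 296 lower in KO rods against Het rods. Libraries of the same number had a mean r of 0.18 in KO rods and KO retina (-0.09 for different numbers), 0.05 in KO rods and Het rods (-0.03) and -0.11 in KO retina and Het retina (0.06).

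With each library left out in turn, the 10 genes had 0 to 1 called lower in Het rods against Het retina, 5 to 7 higher and 1 to 2 lower in KO rods against KO retina, and 0 to 1 lower in KO rods against Het rods. Of all genes, 3061 to 5694 were called lower in the first comparison, with 13394 to 16021 tested. In the second, 2543 to 3842 were called higher and 3332 to 5703 lower, with 13455 to 16031 tested. In the third, 93 to 346 were called lower, with 12841 to 12909 tested. Signs changed for Ddit3 (-0.16 to 0.45) and Ern1 (-0.23 to 0.06) in Het rods against Het retina, for Ern1 (-0.10 to 0.20) and Ptpn11 (-0.07 to 0.22) in KO rods against KO retina, and for Hspa5 (-0.00 to 0.30) in KO rods against Het rods. In KO retina against Het retina they changed for Atf4 (-0.17 to 0.04), Atf6 (-0.08 to 0.02), Ddit3 (-0.16 to 0.51), Dnajb9 (-0.15 to 0.28), Eif2ak3 (-0.03 to 0.07), Ern1 (-0.23 to 0.04), Hsp90b1 (-0.04 to 0.23), Ptpn11 (-0.12 to 0.04) and Xbp1 (-0.07 to 0.19). For the KO effect in rods minus that in retina they changed for Atf6 (-0.23 to 0.04), Eif2ak3 (-0.11 to 0.11), Ern1 (-0.03 to 0.27), Herpud1 (-0.22 to 0.10) and Xbp1 (-0.16 to 0.26). Without a Het retina library, 13394 to 13398 genes passed the filter, which asks for 3 libraries, and 3061 to 3538 were called lower in Het rods against Het retina. Without a KO retina library, 13455 to 13471 genes passed it. In KO rods against KO retina, 2543 to 3187 were then called higher and 3332 to 3836 lower, in place of 4164 and 5878.

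With 3 libraries a group, an exact permutation test of a single gene cannot give a p below 0.1. Counting error per gene was not computed from the scaled values.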
